A study of Mus musculus with 7 samples.

Results

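Matrix metalloproteinases (MMPs) and their tissue inhibitors (TIMPs) were examined as a set of 10 genes: the proteases Mmp2, Mmp3, Mmp9, Mmp12, Mmp13, Mmp14 and Mmp19 and the inhibitors Timp1, Timp2 and Timp3. Members were chosen by gene symbol, as probe sets whose platform annotation gives exactly 1 symbol, and they make up 10 of 22180 genes measured. Each member had 1 such probe set. Total RNA came from macrophages of the inflamed mouse colon, on 7 arrays with 1 array per sorted sample. In 4 samples the mice carried Rictor fl/fl and LysM+/cre, which is 1 copy of cre in the lysozyme M locus, active in myeloid cells including macrophages and neutrophils. In the other 3 samples the mice carried Rictor fl/fl and LysM+/+, with no cre. Floxed Rictor, whose product is a subunit of the kinase complex mTORC2, was thus shared by both groups, and no group carried cre with intact Rictor. All mice had received 5% dextran sulphate sodium (DSS), which injures the colon epithelium, for 5 days and then plain water for 3 days. The sort kept lamina propria cells positive for CD45, CD11b, CD64 and MHCII and negative for Ly6C. Ages and pooling of animals are not stated in the labels, so the p-values below measure the spread between these samples.

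MMPs are zinc-dependent enzymes that cut proteins of the extracellular matrix and also release or inactivate cytokines and growth factors. Most are made as inactive proenzymes, and TIMPs block the active enzymes by occupying the catalytic site. In the gut, fibroblasts, macrophages and neutrophils supply different members: MMP12 is a macrophage elastase, while MMP2 and MMP3 come mainly from stromal cells. Transcription of several MMP genes responds to AP-1, the family of FOS and JUN transcription factors.

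The promoter windows of the members are shown because AP-1 acts on several MMP genes and transcripts of its subunits were also measured, and because Timp2 and Timp3 both had lower signal with cre. RefSeq windows (GRCm38.p6, 250 bases before to 50 after the annotated start) were found for 7 of the 10 members, with 2 for Mmp12. No window was at hand for Mmp2, Mmp9 and Mmp19, so these were not searched. The AP-1 site TGACTCA, searched on both strands, occurred in 1 window each of Mmp3, Mmp12 and Mmp13, and in 5.2% of 32851 windows of all genes. The 67 bases around each match, with the match in capitals, lie at chr9:7445746-7445812, chr9:7347300-7347366 and chr9:7272449-7272515, all on the plus strand.
Mmp3: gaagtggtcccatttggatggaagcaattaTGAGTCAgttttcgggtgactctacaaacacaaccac
Mmp12: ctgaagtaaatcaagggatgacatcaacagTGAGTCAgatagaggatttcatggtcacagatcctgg
Mmp13: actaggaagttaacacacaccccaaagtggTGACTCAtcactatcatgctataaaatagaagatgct
These matches began 46, 44 and 35 bases before the annotated starts of Mmp3, Mmp12 and Mmp13, in that order. The other Mmp12 window and those of Mmp14, Timp1, Timp2 and Timp3 did not hold these letters.

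The windows of Timp2 (chr11:118355362-118355661, minus strand) and Timp3 (chr10:86300162-86300461, plus strand) are given whole, with the GC box GGGCGG, searched on both strands, in capitals.
Timp2: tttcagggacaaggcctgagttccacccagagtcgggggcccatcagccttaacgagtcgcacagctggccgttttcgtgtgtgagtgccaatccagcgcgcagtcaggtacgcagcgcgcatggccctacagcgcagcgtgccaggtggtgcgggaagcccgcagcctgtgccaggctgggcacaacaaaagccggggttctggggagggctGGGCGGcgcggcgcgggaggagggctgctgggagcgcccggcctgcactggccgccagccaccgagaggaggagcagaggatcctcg
Timp3: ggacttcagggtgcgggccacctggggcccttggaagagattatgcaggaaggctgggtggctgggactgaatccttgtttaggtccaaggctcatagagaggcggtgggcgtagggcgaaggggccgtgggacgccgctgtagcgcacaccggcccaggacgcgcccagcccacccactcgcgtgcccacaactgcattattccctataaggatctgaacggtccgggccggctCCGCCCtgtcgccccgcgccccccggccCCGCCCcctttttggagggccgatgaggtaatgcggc
Timp2 held 1 GC box and Timp3 held 2. Timp1 held 1 and Mmp14 held 2, the windows of Mmp3, Mmp12 and Mmp13 held 0, and 35.7% of all windows held at least 1. A match is a description of the letters and not evidence of binding.

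Array medians over all probe sets lay between 5.16 and 5.22 on the log2 scale, and arrays correlated at 0.972 to 0.982 within genotypes and 0.968 to 0.977 between them. The floxed gene Rictor read 7.72, 7.76, 8.25 and 7.80 on LysM+/cre arrays 1 to 4 and 7.76, 7.74 and 7.80 on LysM+/+ arrays 1 to 3. Rictor signal therefore did not separate the genotypes. Which exons its probe set reads is not known here, so this does not check the labels. All 13 measured macrophage and gate markers lay above the median gene (5.55). They had a median difference of 0.00, but 3 were at an unadjusted p under 0.05 in limma, where 11.5% of all genes were. These were Fcgr1, which encodes CD64, at 0.97 ± 0.26 (SE), Itgam, which encodes CD11b, at 0.53 ± 0.19 (SE), and the lysosomal gene Cd68 at -0.20 ± 0.08 (SE). With 4 and 3 arrays, the precision of each difference below is limited.

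The comparison asks how deletion of Rictor in myeloid cells alters colon macrophages during colitis. Effects of Rictor loss, of cre and of its insertion in the lysozyme M locus cannot be told apart here. Within the family, 2 proteases had higher and 2 inhibitors lower signal in LysM+/cre at an unadjusted p under 0.05 in limma, a linear model with moderated variances fitted over all genes. The proteases were Mmp9 (log2 difference 1.35 ± 0.45 SE) and Mmp19 (0.66 ± 0.24 SE), and the inhibitors were Timp3 (-1.16 ± 0.27 SE) and Timp2 (-0.65 ± 0.23 SE). The other 6 members, Mmp2, Mmp3, Mmp12, Mmp13, Mmp14 and Timp1, did not pass even that loose threshold. After Benjamini-Hochberg adjustment over all genes, 0 members passed 0.05, with adjusted p between 0.348 and 0.892. Nor did any gene on the array (0% called, smallest adjusted p = 0.195).

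The share of all genes at an unadjusted p under 0.05 was 11.5%, of which 6.56% of genes were higher and 4.93% lower with cre. Against this stand 4 of the 10 members, 2 in each direction. For 2 members, Timp2 and Timp3, every LysM+/cre array was lower than every LysM+/+ array, where 8.79% of all genes had no overlap (5.23% higher and 3.56% lower). The median difference was 0.07 over the 10 members and 0.00 over all genes. The count of 4 fell to 1 (Timp3) without LysM+/cre array 3 and to 0 with the fibroblast score described below as a covariate. The count over all genes, 2549 in the reported fit, was 2335 without that array and 1451 with that score. The score does not overlap between the genotypes, so little genotype contrast is left in that fit. In bulk RNA, fewer cells of a type and less RNA per cell cannot be told apart.

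**Figure D1:**
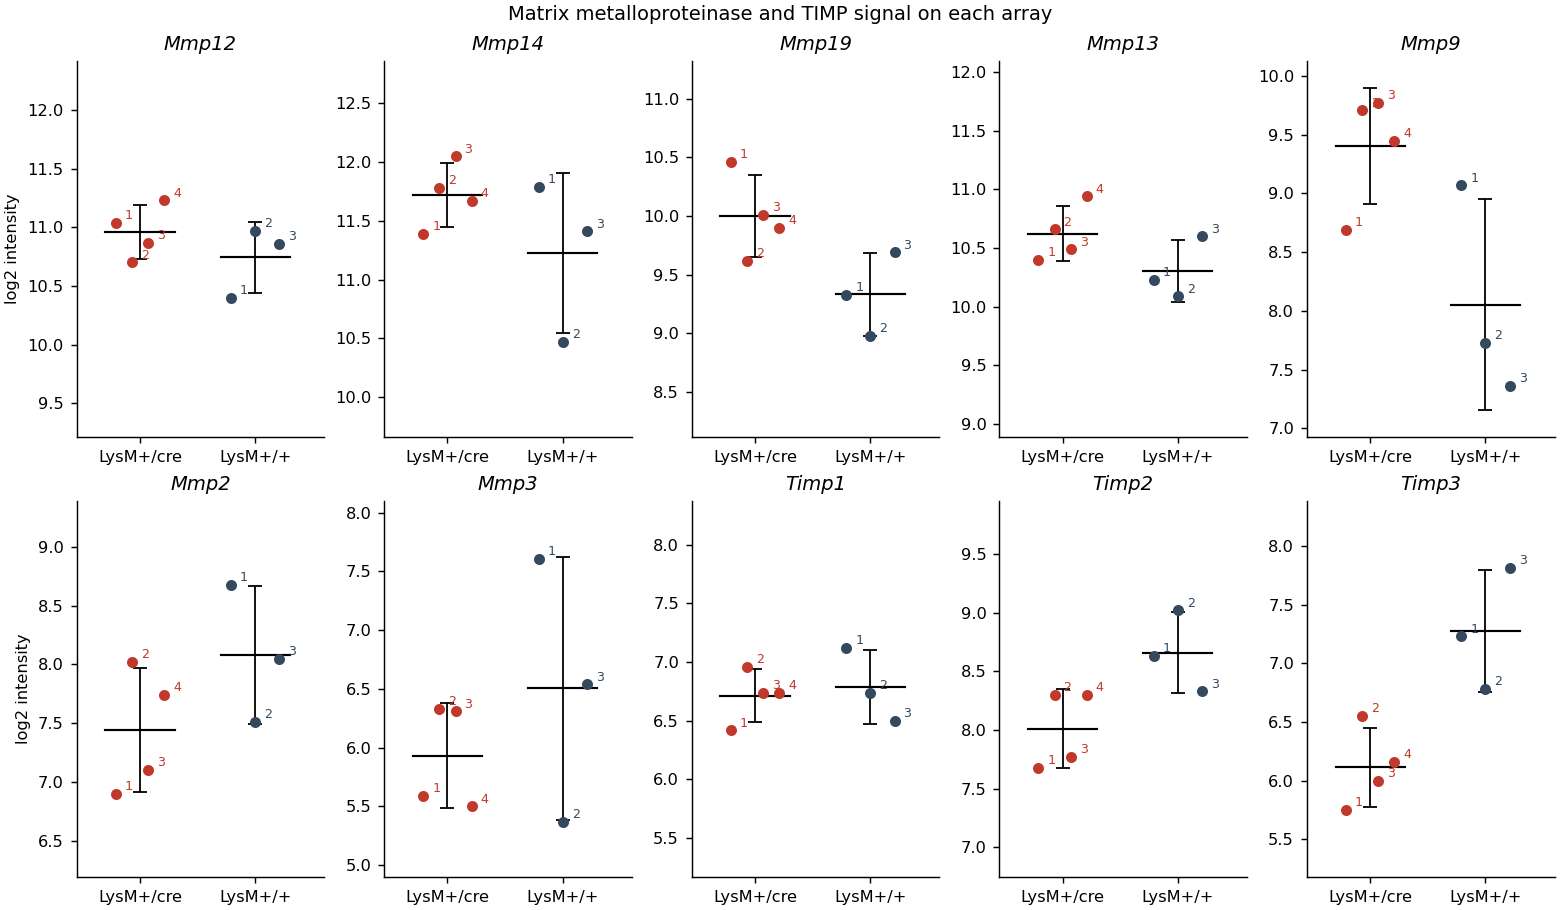
Log2 intensity (vertical axis, the same span in each panel) of the 10 members on 4 LysM+/cre arrays (red) and 3 LysM+/+ arrays (dark), with array numbers beside the points; long bars are means and whiskers SDs. Timp2 and Timp3 have all LysM+/cre points below all LysM+/+ points, and Mmp9 and Mmp19 have higher LysM+/cre means with overlapping points.

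Among the macrophage-type members, Mmp19, a secreted protease also known as RASI-1, showed the clearest difference. It read 10.46, 9.62, 10.01 and 9.90 on LysM+/cre arrays 1 to 4, against 9.33, 8.98 and 9.69 on LysM+/+ arrays 1 to 3. Only LysM+/cre array 2 fell below the highest array without cre, LysM+/+ array 3. The SD was 0.35 over the 4 arrays with cre and 0.36 over the 3 without. The difference of means was 0.66 ± 0.24 (SE) on the log2 scale, or 1.58-fold, with a 95% interval of 0.11 to 1.22 (limma, adjusted p = 0.411).

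Mmp14, a membrane-anchored protease that activates pro-MMP2, read 11.39, 11.78, 12.05 and 11.67 with cre and 11.79, 10.47 and 11.41 without. The genotypes overlapped, and LysM+/+ array 2 stood well below every other array. The difference was 0.50 ± 0.31 (SE; interval -0.25 to 1.25; limma, adjusted p = 0.569), and it was 0.12 without LysM+/+ array 2. It was 0.78 without LysM+/+ array 1, at an unadjusted p under 0.05. Mmp12, the macrophage elastase, read 11.04, 10.70, 10.87 and 11.23 with cre and 10.40, 10.97 and 10.86 without. Its groups overlapped widely, with a difference of 0.22 ± 0.18 (SE; interval -0.20 to 0.63; limma, adjusted p = 0.649) that was 0.05 without LysM+/+ array 1.

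The stromal members had lower means with cre and a wide spread. Mmp2, gelatinase A, read 6.90, 8.02, 7.10 and 7.74 on LysM+/cre arrays, against 8.68, 7.51 and 8.05 on LysM+/+ arrays. LysM+/cre arrays 2 and 4 lay above LysM+/+ array 2, so the groups overlapped. Its difference was -0.64 ± 0.36 (SE; interval -1.49 to 0.22; limma, adjusted p = 0.532), and -0.34 without LysM+/+ array 1. It was -0.92 without LysM+/+ array 2, at an unadjusted p under 0.05. Mmp3, stromelysin 1, which can activate other proMMPs, read 5.59, 6.33, 6.31 and 5.50 with cre and 7.61, 5.37 and 6.54 without. LysM+/+ arrays held both its highest and its lowest value. The difference of -0.58 ± 0.52 (SE; interval -1.80 to 0.65; limma, adjusted p = 0.683) was -0.02 without LysM+/+ array 1 and -1.15 without LysM+/+ array 2, where it was at an unadjusted p under 0.05.

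The macrophage-type and stromal members thus had differences of opposite sign. The median difference was 0.50 for the first set and -0.61 for the second, a gap of 1.11 on the log2 scale. Of the stromal members, Mmp3 read close to the median gene (5.55) on LysM+/cre arrays 1 and 4 (5.59 and 5.50) and LysM+/+ array 2 (5.37). Per array, the mean deviation of the macrophage-type set from its 7-array means minus that of the stromal set was 0.97, -0.23, 0.52 and 0.57 on LysM+/cre arrays and -1.39, -0.05 and -0.39 on LysM+/+ arrays. LysM+/cre array 2 lay within the range of the LysM+/+ arrays, and the other 3 lay above it. Leaving out any 1 array gave a gap of 0.84 to 1.36, and the within-genotype SD of the per-array value was 0.58. It carries no test, because the members were chosen with results known. With the fibroblast score as a covariate the gap was -0.11.

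**Figure D2:**
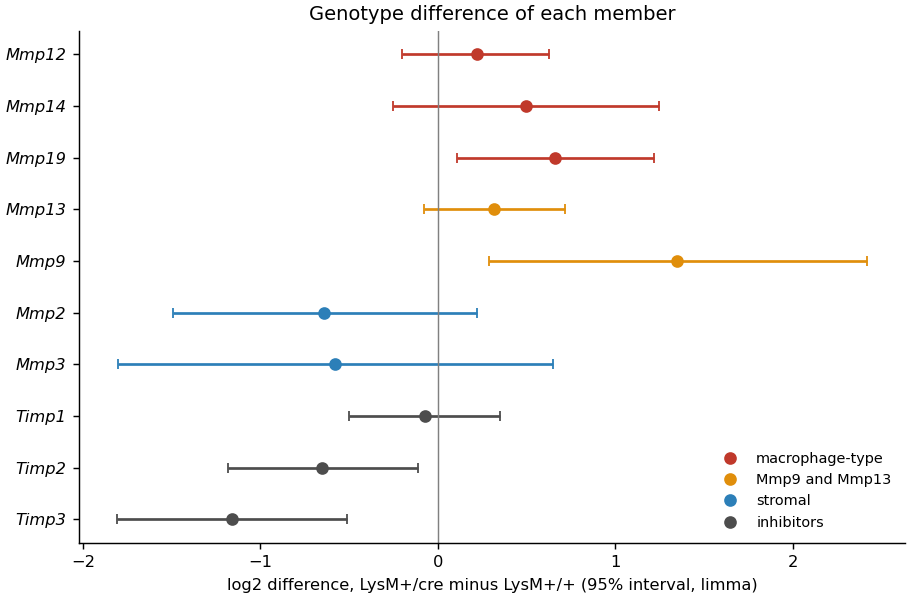
Log2 difference of each member, LysM+/cre minus LysM+/+ (horizontal axis), with limma's 95% interval, coloured by member class. The intervals of Mmp9 and Mmp19 lie above 0 and those of Timp2 and Timp3 below it, while the other 6 include 0.

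Mmp9, gelatinase B, which is stored in neutrophil granules and also made by macrophages, had the largest difference of the 10 members. It read 8.69, 9.71, 9.77 and 9.45 with cre, against 9.07, 7.73 and 7.36 without. LysM+/+ array 1 lay above LysM+/cre array 1, and the other arrays were separated by genotype. The means were 9.41 ± 0.50 (SD, n = 4) with cre and 8.05 ± 0.90 (SD, n = 3) without, a 2.56-fold difference (log2 interval 0.29 to 2.42; limma, adjusted p = 0.406). Without LysM+/+ array 1 the difference was 1.86, and without LysM+/+ array 3 it was 1.01.

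Neutrophil markers varied across the same arrays, although the gate on CD64 and MHCII should leave neutrophils out. Of 12 markers measured, 11 had higher means with cre, with a median difference of 0.42. Of these 1, Trem1, was at an unadjusted p under 0.05, where 6.56% of all genes were higher. The neutrophil score, the mean deviation of the markers, was -0.31, 0.30, 1.25 and -0.29 with cre and 0.40, -1.17 and -0.19 without. Trem1 followed it only in part: it was highest (10.61) on LysM+/cre array 1, which had the lowest score with cre. Its lowest value (7.47) was on LysM+/+ array 2, which had the lowest score of all. S100a8, a calprotectin subunit, spanned 6.35 to 9.87 with cre and 4.74 to 8.75 without. Camp and Mpo lay at or below the median gene. Mmp9 was highest on LysM+/cre array 3, which also had the highest neutrophil score, while LysM+/cre array 4 had high Mmp9 (9.45) at a score below 0. With the neutrophil score as a covariate the Mmp9 difference was 1.03 (limma, adjusted p = 0.41). That fit also placed 4 members at an unadjusted p under 0.05, but not the same 4: Mmp3 (-1.08) and Mmp12 (0.36) entered, and Mmp19 (0.64) and Timp2 (-0.54) dropped out, beside Mmp9 and Timp3 (-1.26). The Mmp14 difference was 0.18 in it.

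Mmp13, the main interstitial collagenase of mice, read 10.40, 10.66, 10.49 and 10.94 with cre and 10.23, 10.09 and 10.60 without. Its groups overlapped at LysM+/+ array 3. The difference was 0.32 ± 0.17 (SE; interval -0.08 to 0.72; limma, adjusted p = 0.511). It was 0.21 without LysM+/+ array 2 and, likewise, without LysM+/cre array 4, and 0.46 without LysM+/+ array 3, where it passed an unadjusted p of 0.05.

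Of the inhibitors, Timp3, which binds to the extracellular matrix and also inhibits ADAM17, had the smallest p-value of the 10 members. It read 5.75, 6.55, 6.00 and 6.16 on LysM+/cre arrays, against 7.23, 6.78 and 7.81 on LysM+/+ arrays. Every array with cre lay below every array without it, and the closest pair was LysM+/cre array 2 and LysM+/+ array 2. The means of 6.11 ± 0.33 (SD, n = 4) with cre and 7.27 ± 0.51 (SD, n = 3) without differed 2.23-fold (log2 interval -1.81 to -0.51; limma, adjusted p = 0.348). The difference stayed between -1.40 and -0.89 when 1 array was left out.

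Timp2, which inhibits MMPs and also takes part in the activation of pro-MMP2 by MMP14, read 7.68, 8.30, 7.77 and 8.30 with cre and 8.63, 9.02 and 8.33 without. The groups did not overlap, but LysM+/cre arrays 2 and 4 were only just below LysM+/+ array 3. The means were 8.01 ± 0.33 (SD, n = 4) with cre and 8.66 ± 0.35 (SD, n = 3) without (log2 interval -1.18 to -0.11; limma, adjusted p = 0.407). Timp1, the inducible soluble inhibitor, read 6.42, 6.96, 6.74 and 6.74 with cre and 7.12, 6.74 and 6.50 without. It did not pass, at -0.07 ± 0.18 (SE; interval -0.50 to 0.35; limma, adjusted p = 0.892), and its sign turned when LysM+/+ array 1 (0.09) or LysM+/cre array 1 (0.03) was left out. As a set, the 3 TIMPs deviated by -0.60, 0.05, -0.38 and -0.15 on LysM+/cre arrays and by 0.45, 0.30 and 0.33 on LysM+/+ arrays.

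Most fibroblast and smooth muscle markers, which belong to cells outside the gate, also had lower means with cre. Of 16 markers, 13 had lower means, and the median difference was -0.27. Of these, 4 (Dcn, Lum, Pdgfra and Myh11) were at an unadjusted p under 0.05 and so was Pi16, which was higher. Over all genes, 4.93% were lower and 6.56% higher at that threshold, and 3.56% were lower without overlap. Dcn, the proteoglycan decorin, read 9.64, 10.45, 10.01 and 10.17 with cre and 11.93, 10.94 and 11.47 without, with no overlap (-1.38 ± 0.27 SE; limma, adjusted p = 0.328). Not all stromal genes were lower: on a separate list of matrix substrate genes, 11 of 17 had lower means and 6 higher. There Col1a1 was at 0.04, Col1a2 at -0.03, Col3a1 at 0.17 and Sparc at 0.19. The fibroblast score was -0.25, 0.09, -0.22 and -0.19 with cre and 0.21, 0.20 and 0.17 without, also with no overlap. Twist2 was the 1 marker of 16 below the median gene. The covariate and the genotype therefore overlap heavily in the fit.

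With the fibroblast score as a covariate, the differences of Timp3 (-0.59) and Timp2 (-0.13) were smaller and those of Mmp19 (0.02) and Mmp3 (-0.01) were near 0, while Mmp9 was at 1.99. None of these 5 was then at an unadjusted p under 0.05 in limma, where p lay between 0.0627 and 0.991. Among LysM+/cre arrays, array 2 had the highest fibroblast score and also the highest Mmp2, Mmp3, Timp1 and Timp3. LysM+/cre array 1 had the lowest fibroblast score, the lowest Mmp2, Timp1, Timp2 and Timp3, and the highest Mmp19. The lowest Mmp3 with cre (5.50) was on array 4 instead. Among LysM+/+ arrays the scores lay within 0.04 of each other while Mmp3 spanned 5.37 to 7.61. Timp3 was highest without cre (7.81) on LysM+/+ array 3, which had the lowest score of that group (0.17). Since the score does not overlap between the genotypes, that fit cannot tell score and genotype apart. The part of stromal RNA in these differences was not tested.

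**Figure D3:**
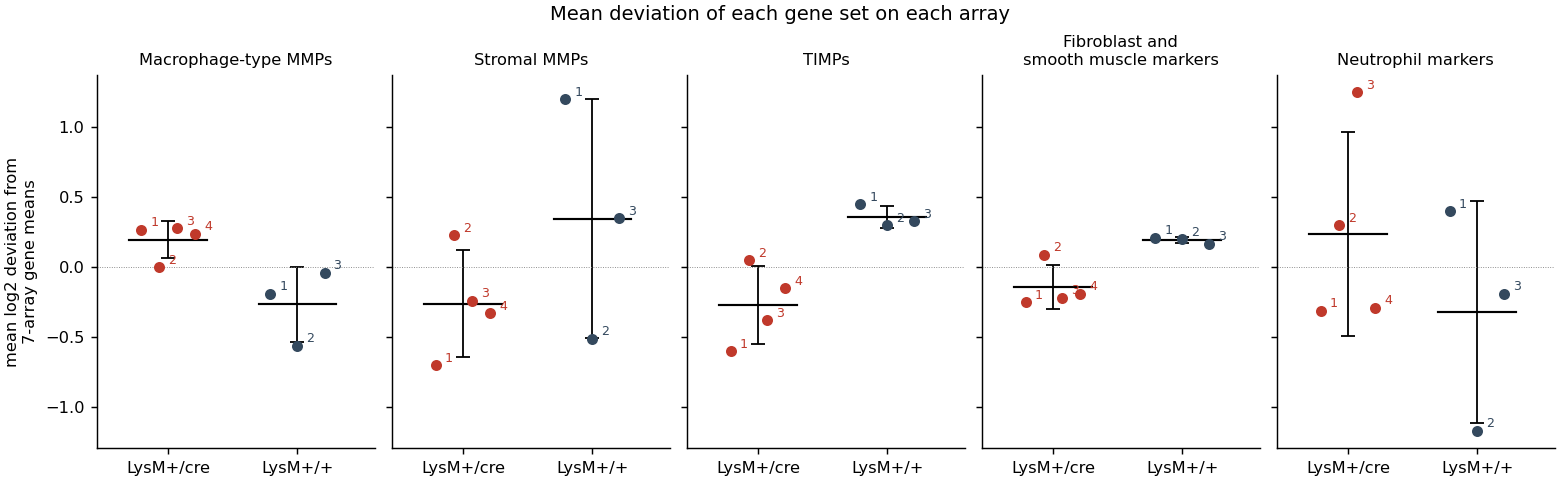
Mean log2 deviation from the 7-array gene means (vertical axis) of the macrophage-type MMPs, the stromal MMPs, the TIMPs, fibroblast and smooth muscle markers and neutrophil markers, on 4 LysM+/cre arrays (red) and 3 LysM+/+ arrays (dark), with means and SDs. The TIMP and fibroblast scores separate the genotypes in the same direction, the stromal MMPs overlap, and the neutrophil score spans -1.17 to 1.25 with overlap.

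Other members of the family showed few differences. Of 17 listed genes 16 were measured, 8 of them above the median gene. At an unadjusted p under 0.05 there were 0 higher and 1 lower, the dim Mmp21 (-0.28), and the median difference was 0.01. The shares over all genes were 6.56% higher and 4.93% lower. Mmp8, the neutrophil collagenase, had the widest spread and read 7.99, 8.11, 10.16 and 7.45 with cre and 7.53, 4.70 and 7.66 without. The extremes fell on LysM+/cre array 3 and LysM+/+ array 2, which also had the highest and lowest neutrophil scores. Its difference of 1.79 ± 0.92 (SE) had an interval of -0.38 to 3.97 (limma, adjusted p = 0.496).

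In the RefSeq gene table, 10 Mmp genes follow one another on chromosome 9 with no other protein-coding gene between them, in the order Mmp13, Mmp12, Mmp1b, Mmp3, Mmp1a, Mmp10, Mmp8, Mmp27, Mmp20 and Mmp7. Their differences ran from -0.58 (Mmp3) to 1.79 (Mmp8), and 0 of the 10 were at an unadjusted p under 0.05, where 11.5% of all genes were. Neighbours did not all share a sign: Mmp12 (0.22) and Mmp13 (0.32) had positive differences, whereas Mmp3 (-0.58) and Mmp10 (-0.13), another stromelysin, had negative ones.

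Among 16 measured genes that activate, restrain or clear MMPs, 0 were higher and 5 lower with cre at an unadjusted p under 0.05, with a median difference of -0.04. Over all genes, 6.56% were higher and 4.93% lower at that threshold, and 3.56% were lower without overlap. Plau, the plasminogen activator urokinase, read 9.48, 9.88, 9.45 and 10.05 with cre, against 10.31, 10.50 and 10.30 without. Its groups did not overlap (-0.66 ± 0.16 SE; limma, adjusted p = 0.354). Reck, a membrane-anchored inhibitor of several MMPs, read 6.16, 5.92, 6.14 and 6.33 with cre and 6.85, 6.78 and 6.41 without, again with no overlap (-0.55 ± 0.14 SE; limma, adjusted p = 0.354). The others were Pcsk6 (-0.28) and Pcsk5 (-0.59), proprotein convertases, and the matricellular gene Thbs2 (-0.54). The urokinase receptor gene Plaur, by contrast, was at 0.20 ± 0.09 (SE), and Furin, a convertase that activates MMP14, was at -0.09 ± 0.06 (SE), neither past that threshold.

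Regulators of MMP transcription included 19 measured genes, of which 1 was higher and 5 lower at an unadjusted p under 0.05, with a median difference of -0.19. Beside this stand 6.56% of all genes higher and 4.93% lower, with 3.56% lower and not overlapping. Jun, an AP-1 subunit, read 10.94, 11.40, 10.98 and 11.36 with cre and 11.56, 12.34 and 11.78 without. All LysM+/cre arrays were below all LysM+/+ arrays (-0.72 ± 0.21 SE; limma, adjusted p = 0.394). Jund, another AP-1 subunit, was at -0.47 ± 0.14 (SE) and Egr1, an immediate early factor, at -1.29 ± 0.19 (SE), both without overlap. Il6 (-0.90) and Stat3 (-0.19) were the other lower genes, and Tgfb1 (0.41) the higher one. The other AP-1 subunits measured did not pass: Fos (-0.28 ± 0.18 SE), Fosb (-0.45 ± 0.28 SE), Junb (-0.05 ± 0.08 SE) and Fosl2 (0.07 ± 0.09 SE). Nor did the MMP-inducing cytokine genes Il1b (0.09 ± 0.09 SE) and Tnf (-0.37 ± 0.30 SE). The 3 members with an AP-1 match in a promoter window had differences of 0.22 (Mmp12), 0.32 (Mmp13) and -0.58 (Mmp3), none past the same threshold. Mmp9 and Mmp19, the proteases past it, had no window to search, nor had Mmp2, so matches and differences cannot be compared over the family.

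**Figure D4:**
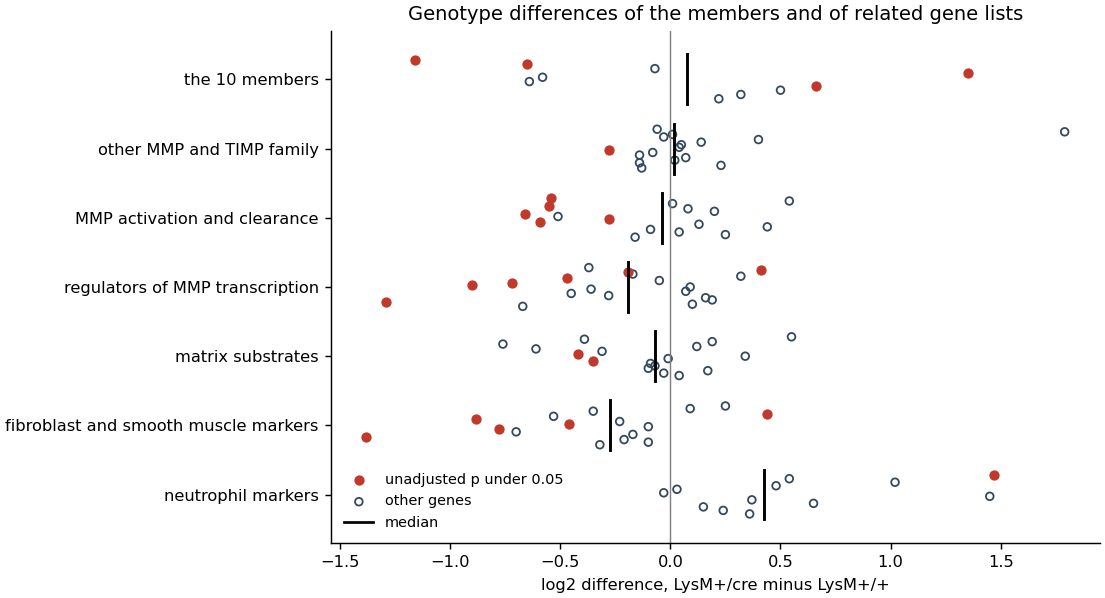
Log2 difference, LysM+/cre minus LysM+/+ (horizontal axis), of each measured gene in 7 lists; filled points are at an unadjusted p under 0.05 and vertical bars are list medians. Fibroblast markers have a median of -0.27 and neutrophil markers one of 0.42, and the 10 members spread to both sides of 0.

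Genes whose pattern over the 7 arrays was nearest to a member were sought among 10405 genes brighter than the median gene. Predicted and unnamed genes, microRNAs and gene segments were left out of that number. Nearness was the root mean square difference between the 2 genes' deviations from their own means, in log2 units. Nearest to Mmp2 were Cygb (0.13), which encodes the globin cytoglobin, Bicc1 (0.23) and the laminin gene Lamb1 (0.23), beside an Mmp2 deviation of 0.56 about its own mean. Nearest to Mmp3 (0.73) were Pappa (0.23), a metalloproteinase that cuts IGF-binding proteins, the oncostatin M receptor gene Osmr (0.27) and the basement membrane gene Nid1 (0.29). For Mmp12 (0.24) they were the tyrosine kinase gene Btk (0.06), the sheddase gene Adam10 (0.09) and Glg1 (0.09). Mmp14 (0.47) was nearest to Fabp5 (0.10), a fatty acid binding protein gene, the lysosomal phosphatase gene Acp2 (0.11) and Tmem38b (0.12). Mmp19 (0.44) was nearest to Scube3 (0.11), the semaphorin gene Sema4d (0.13) and the elongation factor gene Ell (0.13). These names describe 7 arrays, were not tested, and say nothing of shared function.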

How the data were processed

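Deposited values were log2 intensities per probe set on Affymetrix Mouse Gene 2.0 ST arrays, which the authors produced in Affymetrix Expression Console (per the design text of the series). The submitters' processing notes add Transcriptome Analysis Console. No version, summarisation method or background correction is stated in the sources at hand. Array medians were nearly equal (5.16 to 5.22). If the values had been scaled between arrays, a shift common to all genes would not be seen.

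Of 41345 probe sets, 23521 had exactly 1 symbol, 1814 had several and 16010 had none listed. The probe set of highest mean was kept for each of 22180 genes, with no filter on dim ones. Differences (LysM+/cre minus LysM+/+) were fitted by lmFit and eBayes of limma 3.58.1 (R 4.3.3), two-sided and with no covariate, with Benjamini-Hochberg adjustment over all genes. The code was tested on simulated data. RefSeq tables (GRCm38.p6) gave gene order and promoters.

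Members and lists were chosen with earlier results of these data known. Named are all members, up to 4 genes per list of smallest unadjusted p under 0.05 (otherwise the 1 of smallest p), and the 3 genes nearest in pattern to each macrophage-type or stromal member. Others named as background or to complete a count were picked after their values were seen. Replicate numbers were not treated as pairs: deviations of same-numbered arrays correlated at -0.115, 0.121 and 0.103. Alternatives were 2 scalings, a filter, averaged probe sets, 2 variance models, array weights, the replicate block, 2 marker scores as covariates and the omission of single arrays. Plots used matplotlib 3.10.9.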

Additional observations from a re-analysis of the deposited data

How the results depend on the processing

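Under 17 alternatives, 0 genes passed the adjusted threshold in each limma fit, as in the reported fit. The count of genes at an unadjusted p under 0.05 was 2549 as reported, 1451 with the fibroblast score as a covariate, and 1693 to 2779 when 1 array was left out. For members that count was 4 as reported, 0 with the fibroblast score, 3 with the replicate block (Mmp9 was lost, at 1.34), and 1 to 4 when 1 array was left out. The gap between macrophage-type and stromal members, reported as 1.11, was -0.11 with the fibroblast score, 1.10 with the replicate block and 0.84 to 1.36 when 1 array was left out. Signs turned for Mmp2 (0.28), Mmp12 (-0.14) and Timp1 (0.35) with the fibroblast score, and for Timp1 when LysM+/+ array 1 (0.09) or LysM+/cre array 1 (0.03) was left out, where its full range was -0.22 to 0.09. No sign turned for the other 7 members, but with the fibroblast score Mmp3 (-0.01) and Mmp19 (0.02) were near 0. With the neutrophil score the count of members was again 4, with Mmp3 and Mmp12 in place of Mmp19 and Timp2. Without single LysM+/+ arrays, Mmp2, Mmp3, Mmp13 or Mmp14 entered the count, and Timp3 was in it whichever array was left out. The fibroblast score does not overlap between the genotypes, so that fit has little genotype contrast left. The replicate block changed no adjusted call. Same-numbered arrays did not correlate consistently, so the block is no evidence of pairing. Signal over background could not be judged, since no detection values were used here, and differences of dim genes such as Mmp21 are the least certain.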

Other observations

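Other matrix proteases were compared in the same way. Of 15 measured ADAM and ADAMTS genes, 0 were higher and 2 lower with cre at an unadjusted p under 0.05 in limma, with a median difference of -0.06. The shares over all genes were 6.56% higher and 4.93% lower, with 3.56% lower and not overlapping. Adam33, a membrane protease expressed by mesenchymal cells, read 6.02, 6.08, 6.18 and 6.08 with cre and 6.82, 7.41 and 6.91 without, with no overlap (-0.96 ± 0.14 SE; adjusted p = 0.306). Adamts1, an aggrecan- and versican-cutting protease, read 5.19, 5.82, 5.82 and 5.61 with cre, against 7.16, 5.65 and 6.98 without (-0.99 ± 0.37 SE; adjusted p = 0.416). LysM+/+ array 2 lay among the arrays with cre. Fibroblast scores separated the genotypes in the same direction, and their part in these differences was not tested.

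Among 8 cathepsin and elastase genes, 1 was higher and 0 lower at that threshold (6.56% and 4.93% of all genes). This was Ctss, a lysosomal protease of antigen-presenting cells with elastase activity, at 0.26 ± 0.11 (SE; adjusted p = 0.433). Of 17 measured matrix substrate genes, 0 were higher and 2 lower, beside the same shares of all genes: Col6a1 (-0.35) and Hspg2 (-0.42), which encodes perlecan. In all, 11 of the 17 had lower means with cre (median -0.07). Elastin, the substrate for which MMP12 is named, was at -0.01 ± 0.18 (SE).

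Markers of further cell types were also read, beside 10783 of all 22180 genes with lower means with cre. Endothelial markers had 9 of 10 lower, 0 at an unadjusted p under 0.05 in either direction (median -0.22, the dim Tek at -0.47). The 1 higher, Pecam1, was the brightest of them and had the largest difference on that list, 0.91 ± 0.45 (SE). Epithelial markers had 11 of 12 lower, with Car4 (-0.94) and Slc26a3 (-1.07) at that threshold (median -0.30). Over all genes, 6.56% were higher and 4.93% lower at it. Lymphocyte markers had 5 higher and 5 lower (median 0.05), with Cd79b (0.39) and the dim Cd3d (0.21) higher at that threshold and 0 lower. Jchain, the brightest of them, was at -0.89 ± 0.55 (SE) and did not pass. Only 3 of the 10 lymphocyte markers measured lay above the median gene. Dendritic cell markers had a median of -0.30 (Zbtb46 at -0.38), and mast cell and eosinophil markers one of -0.02 (the dim Tpsb2 at 0.30). Of the 10 mast cell and eosinophil markers, 4 had higher and 6 lower means with cre. Only 1 of them, Kit, lay above the median gene, and it was at -0.88 ± 0.45 (SE), not past that threshold.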
